A study of Mus musculus with 4 samples.

Results

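The 31 genes described here encode the signalling chain of the B cell antigen receptor, from its signal-transducing subunits to its adaptors, kinases, lipid enzymes, distal relays and inhibitors. They were picked out by gene symbol among the 31053 genes of a single-cell expression matrix, and all 31 were present. Their counts were read in every cell class of a mouse tumour-draining lymph node. The aim was to separate members whose transcripts were found mainly in B cells from members that myeloid, T or NK cells shared. The split rests on a threshold share of the B cell level, and B-restricted does not mean absent elsewhere.

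The cells came from the inguinal lymph nodes of 4 C57BL/6J mice that carried B16F10 melanomas, a transplantable mouse tumour line, implanted in the upper anterior thigh on both sides. The 2 control mice were left untreated. The 2 treated mice drank indoximod, a drug directed at the indoleamine 2,3-dioxygenase pathway, at 2 mg/ml and were given 350 ug of ibrutinib, an inhibitor of Bruton's tyrosine kinase (Btk), by daily intraperitoneal injection, both from day 9, and then cyclophosphamide, a DNA-alkylating cytotoxic drug, at 150 mg/kg intraperitoneally on day 10. Nodes of all mice were taken 48 hours after the cyclophosphamide day, and each mouse gave its own library of 10x Genomics 3′ single-cell RNA. No genotype other than the strain and no age is given in the labels used here.

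The matrix marks its cells only with library suffixes 1 to 4, and no label ties a suffix to a mouse. Treated and control nodes could therefore not be compared, and the 4 libraries are reported one by one. They are not averaged as replicates, no p-value is given, and intervals cover counting error only.

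When antigen binds the surface immunoglobulin, the kinase Lyn phosphorylates the tails of Cd79a and Cd79b, and Syk docks on them and is activated. The adaptor Blnk then brings Btk and phospholipase C gamma 2 together, and calcium and diacylglycerol carry the signal through protein kinase C beta to the Bcl10-Malt1 complex and NF-kB, and through calcineurin to NFAT. Coreceptors such as the complement receptor Cr2 lower the threshold, and inhibitory receptors such as Cd22, Cd72 and Fcgr2b recruit the phosphatases Ptpn6 and Inpp5d to raise it. Myeloid cells use several of the same proteins behind Fc receptors and integrins, and T cells use paralogues of many of them.

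The matrix held 30824 cell barcodes (6978 to 9831 per library, where the labels state about 2000 cells per sample) with 39589629 to 53643414 unique molecular identifiers (UMIs, counts of tagged transcripts) per library. Keeping barcodes with 300 or more genes and no more than 10% mitochondrial UMIs left 26096 cells, and 86 barcode sequences occurred in 2 libraries. Cells were assigned to a class by at least 3 UMIs of at least 2 marker genes, none of them a member, and 1635 cells with 2 or more markers of another lineage were set aside as mixed. T and NK cells were not set aside for each other's markers, and were told apart by Cd3e and Cd3d. This gave 9076 B cells, 14034 T cells, 61 NK cells, 143 monocytes and type 2 dendritic cells (DCs), 95 macrophages, 421 mature DCs and 54 plasmacytoid DCs, in all of which every library was represented. Cd3e, a T cell gate marker, reached 432 CPM (UMIs scaled to a class total of 1000000) in T cells and 3.32 in B cells. Lyz2, a monocyte gate marker, reached 9396 CPM in monocytes and 8.12 in B cells. Both genes were used in the gates, so these values describe the gates and do not test them. In the macrophage gate the median was 1053 UMIs per cell, against 3833 in B cells and 6233.5 in T cells. The B cells included germinal centre cells, described below. These held 2041429 of 10521714 B cell UMIs in library 1 and 2349925 of 10224605 in library 2. In libraries 3 and 4 they held 91926 of 9285543 and 39422 of 12479569. Their part in the library differences of the B cell values was not tested.

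Promoter sequence is given for 6 members, as the stretch before a RefSeq start site of genes whose levels the results below turn on. For 4 of them no other class of at least 50 cells reached 25% of the B cell level. The others are Cd72, which CD8 T cells also carried, and Blnk, which plasmacytoid DCs also carried. RefSeq windows on build GRCm38.p6 matched 26 of the 31 members with 35 start sites. Lyn, Blk, Cd79b, Malt1 and Nfatc1 had none. Each run below is the 250 bases before the start site, read 5′ to 3′ on the gene's strand, with motif letters in capitals. In the gene annotation used for exon overlaps, the Blnk gene reaches 40994535, so its window lies inside the gene. The Cd79a gene starts there at 24897381, inside its window. The Cd72 and Rasgrp3 windows overlap their annotated genes by a few bases. The motifs searched on both strands were the Ets core (GGAAGT, or ACTTCC on the other strand), a PU.1 form (GAGGAAGT or ACTTCCTC, which contains the Ets letters), an E-box (CAGGTG or CACCTG), an EBF form (CCCNNGGG) and the octamer (ATGCAAAT or ATTTGCAT).
Cd79a, chr7:24897247-24897496, plus strand: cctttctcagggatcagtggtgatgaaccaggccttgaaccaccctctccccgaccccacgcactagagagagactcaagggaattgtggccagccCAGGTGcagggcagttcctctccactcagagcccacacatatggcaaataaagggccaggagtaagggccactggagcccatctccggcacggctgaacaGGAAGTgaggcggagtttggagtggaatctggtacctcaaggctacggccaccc
Bank1, chr3:136326067-136326316, minus strand: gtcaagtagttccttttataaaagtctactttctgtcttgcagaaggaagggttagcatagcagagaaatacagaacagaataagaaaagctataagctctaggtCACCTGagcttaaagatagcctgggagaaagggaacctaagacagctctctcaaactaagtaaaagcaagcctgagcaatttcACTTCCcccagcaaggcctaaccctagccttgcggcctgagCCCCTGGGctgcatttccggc
Cr2, chr1:195176720-195176969, minus strand: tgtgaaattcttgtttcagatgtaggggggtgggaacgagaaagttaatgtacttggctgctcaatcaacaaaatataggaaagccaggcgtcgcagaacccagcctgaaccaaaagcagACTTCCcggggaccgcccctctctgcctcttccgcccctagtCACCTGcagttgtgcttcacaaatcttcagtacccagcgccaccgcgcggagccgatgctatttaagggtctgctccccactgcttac
Rasgrp3, chr17:75435655-75435904, plus strand: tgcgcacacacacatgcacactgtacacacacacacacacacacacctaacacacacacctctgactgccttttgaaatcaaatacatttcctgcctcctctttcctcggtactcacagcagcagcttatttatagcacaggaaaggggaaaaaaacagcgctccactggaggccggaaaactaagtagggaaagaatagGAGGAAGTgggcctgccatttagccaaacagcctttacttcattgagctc
Cd72, chr4:43454627-43454876, minus strand: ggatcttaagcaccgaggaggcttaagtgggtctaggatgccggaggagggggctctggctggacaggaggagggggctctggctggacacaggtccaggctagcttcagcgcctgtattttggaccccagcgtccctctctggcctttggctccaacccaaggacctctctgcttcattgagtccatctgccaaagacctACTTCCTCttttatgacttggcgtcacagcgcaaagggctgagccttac
Blnk, chr19:40994222-40994471, minus strand: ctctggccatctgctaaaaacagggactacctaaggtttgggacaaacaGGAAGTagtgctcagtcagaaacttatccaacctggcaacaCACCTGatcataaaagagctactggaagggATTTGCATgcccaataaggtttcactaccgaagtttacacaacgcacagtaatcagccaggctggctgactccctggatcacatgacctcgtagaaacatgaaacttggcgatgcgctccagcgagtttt

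The Ets letters lay in 20 of the 35 member windows (57.1%), in 18 members, and in 19.7% of the 32851 windows of that length over all genes. In Cd79a they began 54 bases before the start, in Bank1 62 bases and in Cr2 130 bases before it. Cd72 and the Rasgrp3 window shown carried the longer PU.1 form, 49 and 50 bases before the start. Another Rasgrp3 window, chr17:75465288-75465537, held none of the motifs. The PU.1 form lay in 6 member windows (17.1%; Cd72, Grb2, Inpp5d, Rasgrp3, Sh3bp5 and Vav1) and in 2.44% of all windows. The E-box letters lay in 13 member windows (37.1%) against 17.2% of all. The EBF form lay in 7 member windows (20%; Bank1, Cd22, Cd81, Vav1 and Vav3) against 11.8%, and the octamer in 2 (5.71%; Blnk and Prkcb) against 1.6%. These matches describe letters in a window and are not binding sites. Overlapping windows of Vav3, and of Ptprc, share a match, so the window counts are not independent.

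Against T cells, the largest other class, the members divided. Cd79a, Blnk, Rasgrp3, Syk, Fcgr2b, Bank1 and Lyn were over 100 times higher in B cells, while Pik3cd, the catalytic subunit of the phosphoinositide 3-kinase delta, was lower and Ptprc, Vav1, Vav3, Cblb and Nfatc1 were not called. A gene was called where each library with 10 or more counts in the pair of classes together showed a difference of 1.5-fold or more in one direction, and 3 or more libraries had that many counts. This describes the libraries and tests no hypothesis. By that rule 25 of the 31 members were higher in B cells, against 14.5% of the 12555 genes tested, and 1 was lower, against 14%. The median log2 ratio was 3.63 over the members and 0.13 over all genes. Trimmed-mean scaling moved the ratios by a median over libraries of -0.11 and changed no member's call.

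Both receptor subunits were called higher in B cells, and Cd79a had the largest ratio of the members. Cd79a stood at 2226, 2222, 2682 and 2604 CPM in the B cells of libraries 1 to 4 and at 9.58, 7.32, 6.23 and 14.2 CPM in their T cells. Cd79b stood at 1673, 1689.8, 1821 and 1763 CPM in B cells and 23.5, 22.7, 19.8 and 26.4 CPM in T cells. Every B cell value of both genes lay above every T cell value, with log2 ratios of 7.98 for Cd79a (libraries 7.52 to 8.75) and 6.22 for Cd79b. Cd79a UMIs were found in 99.7% of B cells and 5.68% of T cells, and after each cell was thinned to 1500 UMIs in 96.4% and 1.5%. The T cell level of Cd79a was 0.395% of the B cell level. That of Ighd, an immunoglobulin heavy-chain gene that T cells do not express, was 9.79 CPM against 973, so a member's level of this order in another class cannot be told apart from free B cell RNA.

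The coreceptor genes parted from each other. Cr2, the receptor for complement fragment C3d, stood at 201, 199, 257 and 265 CPM in B cells and 2.96, 2.87, 2.93 and 2.72 CPM in T cells (log2 ratio 6.34). It had 0 counts in monocytes and 0 in macrophages, and its B cell level was at least 71.1-fold and 13.2-fold higher, with 3 counts summed over the libraries as the floor of each class. Cd81, the tetraspanin of the B cell coreceptor, stood at 146, 153, 156 and 156 CPM in B cells, 68.3, 75.4, 50.9 and 65.6 in monocytes and 101, 128, 141 and 74.8 in mature DCs. Monocytes lay below B cells in each library and met the fold rule (log2 1.20), while mature DCs did not (log2 0.53, libraries 0.14 to 1.06). In plasmacytoid DCs Cd81 had 1 count.

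The receptor-proximal kinases differed in where else they were found. Syk, which docks on the phosphorylated receptor tails, stood at 183, 182, 174 and 170.2 CPM in B cells, 156, 115, 136 and 153 CPM in monocytes and 1.74, 1.44, 0.795 and 1.20 CPM in T cells. Monocytes lay below B cells in each library, but not by 1.5-fold in all (log2 0.34), and T cells lay 7.12 log2 units below. Syk UMIs were found in 49.6% of B cells, 46.2% of monocytes and 0.805% of T cells, and in 22.8%, 15.9% and 0.157% after thinning, which left out 36 of the 143 monocytes.

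Lyn, the Src-family kinase with both activating and inhibitory duties, stood at 238, 224, 236 and 237 CPM in B cells and 459, 337, 549 and 564 CPM in monocytes. It was called lower in B cells than in monocytes (log2 -1.0, libraries -1.25 to -0.59), and the classes did not overlap. As a share of the B cell level it stood at 193% in macrophages and 0.883% in T cells. Blk, the Src-family kinase named for B lymphocytes, stood at 102, 86.7, 99.4 and 90.9 CPM in B cells and 2.49, 3.71, 4.31 and 4.23 CPM in T cells. It had 0 counts in monocytes, so its B cell level was at least 29.0-fold higher, with 3 counts as the floor. Btk itself, the target of ibrutinib and no member of the set, stood at 120.1, 113, 113 and 115 CPM in B cells. As a share of the B cell level it stood at 0.606% in T cells, 4.6% in NK cells, 13.0% in mature DCs, 36.1% in plasmacytoid DCs, 39.5% in monocytes and 50.8% in macrophages.

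**Figure D1:**
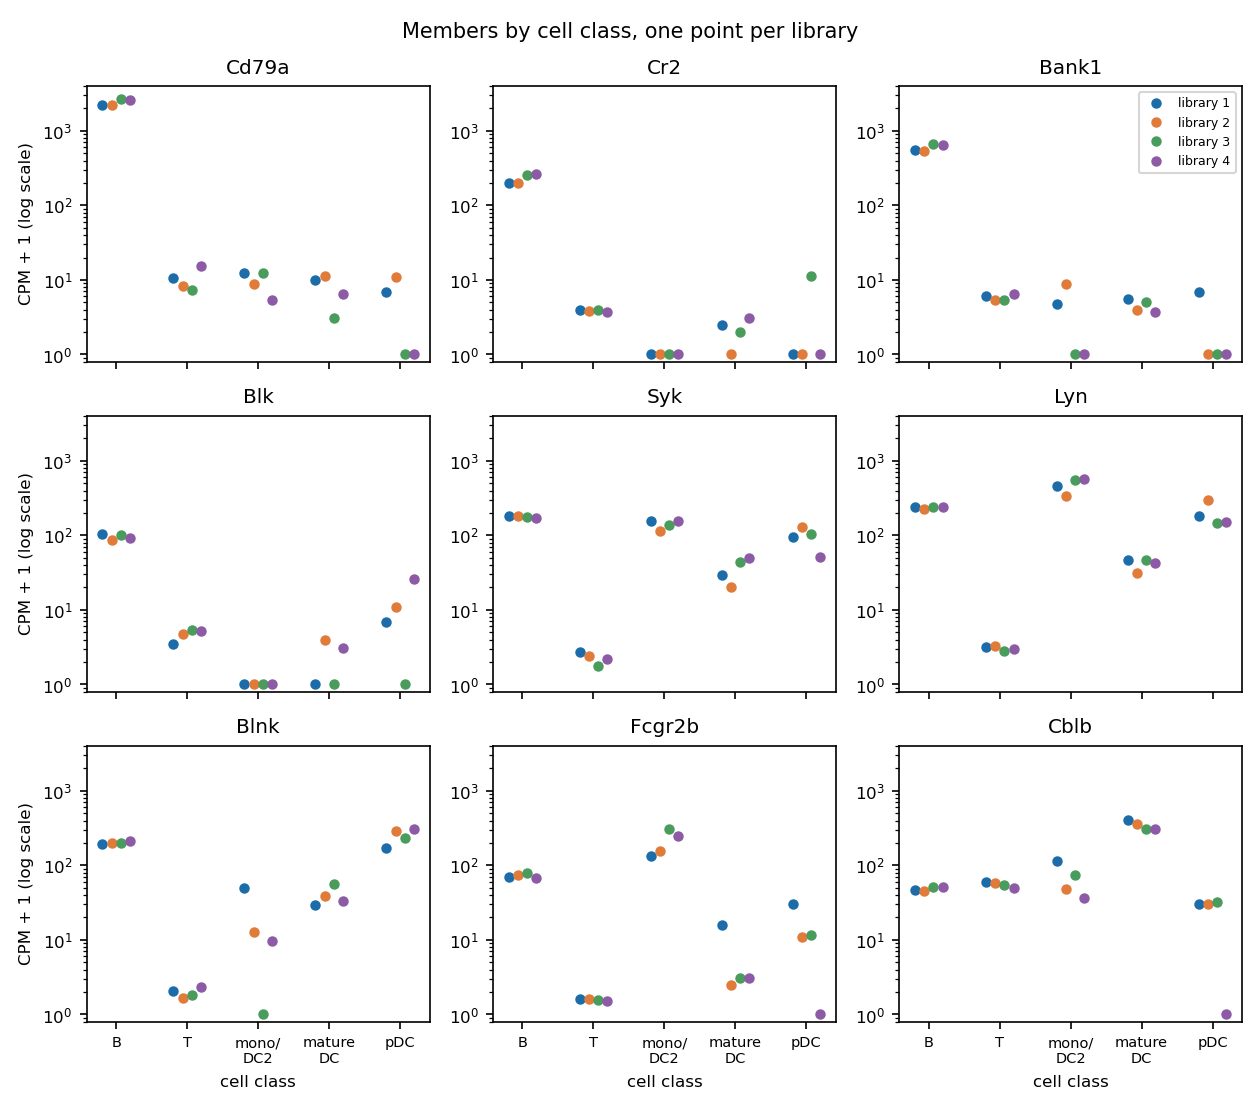
CPM plus 1 (log axis) of 9 members in 5 cell classes, with 1 point per library. Cd79a, Cr2, Bank1 and Blk were high in B cells only among the classes shown, Lyn and Fcgr2b were higher in monocytes than in B cells, Blnk was also present in plasmacytoid DCs, and Cblb was highest in mature DCs.

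Ptprc, the phosphatase Cd45 that keeps Src-family kinases active in all leukocytes, stood at 782, 769, 790.4 and 758 CPM in B cells and 997, 975, 988 and 918 CPM in T cells. T cells lay above B cells in each library but under 1.5-fold (log2 -0.32). NK cells, at 1806, 2113, 1806 and 1733 CPM, and monocytes, at 1397, 1266, 2126 and 1868 CPM, lay above both, and mature DCs, at 219.9, 185, 227 and 236 CPM, below.

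Among the adaptors, Blnk had the widest gap between lymphocyte classes. It stood at 196, 196, 201 and 209 CPM in B cells, 1.08, 0.649, 0.836 and 1.34 CPM in T cells and 169.7, 285, 230.3 and 303 CPM in plasmacytoid DCs. The B and plasmacytoid DC values overlapped (log2 -0.17, counting interval -0.46 to 0.14), and the T cell values lay far below both. Blnk UMIs were found in 53.3% of B cells and 72.2% of plasmacytoid DCs, and in 24.4% and 34.7% after thinning. In those same plasmacytoid DCs the B cell marker list summed to 517 CPM, against 4110 CPM in B cells and 51.8 CPM in T cells, and Cd79a stood at 4.90 CPM. The part of B cell RNA in the Blnk level was not tested beyond these values.

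Bank1, a scaffold that links Lyn to calcium release, stood at 556, 538, 660.2 and 641 CPM in B cells and 5.02, 4.4, 4.31 and 5.44 CPM in T cells. It had 3 counts in monocytes (log2 ratio 7.52, counting interval 5.98 to 9.80) and 0 in NK cells. Dapp1, a phosphoinositide-binding adaptor, stood at 87.8, 92.6, 83.2 and 83.3 CPM in B cells and 188, 222, 181 and 217 CPM in mature DCs. It was 1 of 2 members called lower in B cells than in mature DCs (log2 -1.23), and the classes did not overlap. Pik3ap1, which brings phosphoinositide 3-kinase to the receptor, stood at 20.4 to 25.2 CPM in the B cells. It stood at 0.584 CPM in T cells, and at 31.5 CPM in monocytes from 29 counts. Grb2, the general adaptor between receptors and Ras, stood at 282, 302, 225 and 219 CPM in B cells, 86.6, 89.0, 88.5 and 83.5 CPM in T cells and 201, 171, 255 and 297 CPM in monocytes. B cells exceeded T cells in each library (log2 1.56), and B cells and monocytes overlapped.

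The 2 lipid enzymes differed from each other. Pik3cd stood at 54.9, 53.7, 50.1 and 50.1 CPM in B cells, 95.6, 94.6, 88.2 and 89.2 CPM in T cells and 7.53, 5.97, 2.04 and 3.40 CPM in mature DCs. It was the 1 member called lower in B than in T cells (log2 -0.81, libraries -0.83 to -0.80), short of 2-fold, and B cells stood far above mature DCs (log2 3.63). Plcg2, the phospholipase that makes the calcium-releasing second messenger, stood at 82.5, 90.2, 72.8 and 81.0 CPM in B cells and 98.7, 119, 209 and 179 CPM in monocytes. Monocytes lay above B cells in each library but the 1.5-fold rule was not met (log2 -0.83), and T cells held 1.47% of the B cell level.

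Of the exchange factors, which load small GTPases with GTP, the 3 Vav genes stayed under 50 CPM in B cells. Vav1, the Rac activator of all blood cells, stood at 39.7, 47.4, 46.2 and 43.5 CPM in B cells, 37.4, 43.0, 40.9 and 40.9 CPM in T cells and 81.9, 78.7, 83.7 and 75.7 CPM in plasmacytoid DCs. B and T cells overlapped, and plasmacytoid DCs were the class in which Vav1 was called higher than in B cells (log2 -0.88), from 33 counts. Vav2 stood at 20.1 to 23.3 CPM in B cells and 1.48 to 1.76 CPM in T cells. Vav3 stood at 8.72 to 11.4 CPM in B cells and at 34.2, 35.7, 22.6 and 61.2 CPM in monocytes, where it was called higher than in B cells (log2 -1.97). Rasgrp3, the diacylglycerol-driven Ras activator of B cells, differed from them, with 106, 108, 107 and 102 CPM in B cells and 0.502 to 0.964 CPM in T cells (log2 7.16). It had 0 counts in NK cells and 11 in mature DCs.

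All 4 distal relays towards NF-kB and NFAT were also found in T cells and monocytes. Prkcb, the diacylglycerol-activated kinase, stood at 131 to 137 CPM in B cells, 35.7 to 43.6 in T cells and 102 to 127 in monocytes. Bcl10, an adaptor on the way to NF-kB, stood at 111 to 126 CPM in B cells and 61.7 to 70.7 in T cells (log2 0.84). Malt1, the protease that binds Bcl10, stood at 121, 135, 135 and 132 CPM in B cells, 62.9, 66.8, 58.5 and 53.4 CPM in T cells and 142, 158, 186 and 205 CPM in mature DCs. Mature DCs exceeded B cells in each library by less than 1.5-fold in at least 1 of them, and T cells lay below both. Nfatc1, the calcium-driven transcription factor, stood at 50.6 to 57.9 CPM in B cells and 33.0 to 44.5 in T cells, which did not meet the rule (log2 0.47).

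The 8 inhibitors did not follow one pattern. Cd22, the sialic acid lectin that holds Ptpn6, stood at 209.8, 218, 224 and 216 CPM in B cells and 2.22 to 3.76 CPM in T cells. It stood at 100.3, 66.4, 95.9 and 77.2 CPM in the macrophage gate from 15 counts, in cells that also held 93.9 CPM of Cd79a and 64.5 CPM of Ighd. The part of B cell RNA in that macrophage value was not tested. Cd72, a C-type lectin with an inhibitory tail, stood at 208, 208, 217 and 218 CPM in B cells and 28.9, 29.3, 29.1 and 28.8 CPM in T cells, with no overlap (log2 2.88). Its T cell share of the B cell level, 13.6%, was well above the 0.395% of Cd79a and the 1.34% of Cd79b in the same cells.

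Fcgr2b, the inhibitory Fc receptor, stood at 69.9, 73.5, 77.8 and 67.1 CPM in B cells, 133, 155, 305 and 249 CPM in monocytes and 0.516 to 0.61 CPM in T cells. Monocytes lay above B cells in every library (log2 -1.49). Ptpn6, the phosphatase Shp-1, stood at 343, 344, 379 and 368 CPM in B cells, 89.4, 95.6, 106 and 104 CPM in T cells and 361, 282, 650.4 and 512 CPM in monocytes. B cells lay above T cells throughout and overlapped with monocytes. Inpp5d, the lipid phosphatase Ship1, stood at 92.2 to 115 CPM in B cells, 33.2 to 42.1 in T cells and 96.1 to 167 in monocytes.

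Dok3, an adaptor that damps calcium entry, stood at 100.5, 102, 95.2 and 93.0 CPM in B cells, 34.2, 23.8, 62.2 and 70.0 CPM in monocytes and 1.39 to 1.69 CPM in T cells. B cells lay above monocytes in each library without meeting the fold rule (log2 1.10). Sh3bp5, a binder of Btk, stood at 170.2, 174, 171 and 173 CPM in B cells and 46.1, 46.6, 37.3 and 38.9 CPM in T cells (log2 2.04). Cblb, the ubiquitin ligase that restrains lymphocyte activation, ran the other way, at 45.4, 44.4, 49.9 and 50 CPM in B cells, 59.3, 56.2, 53.0 and 49.0 CPM in T cells and 402, 356, 306 and 307 CPM in mature DCs. B and T cells overlapped (log2 -0.18), and mature DCs stood above B cells in every library (log2 -2.81).

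**Figure D2:**
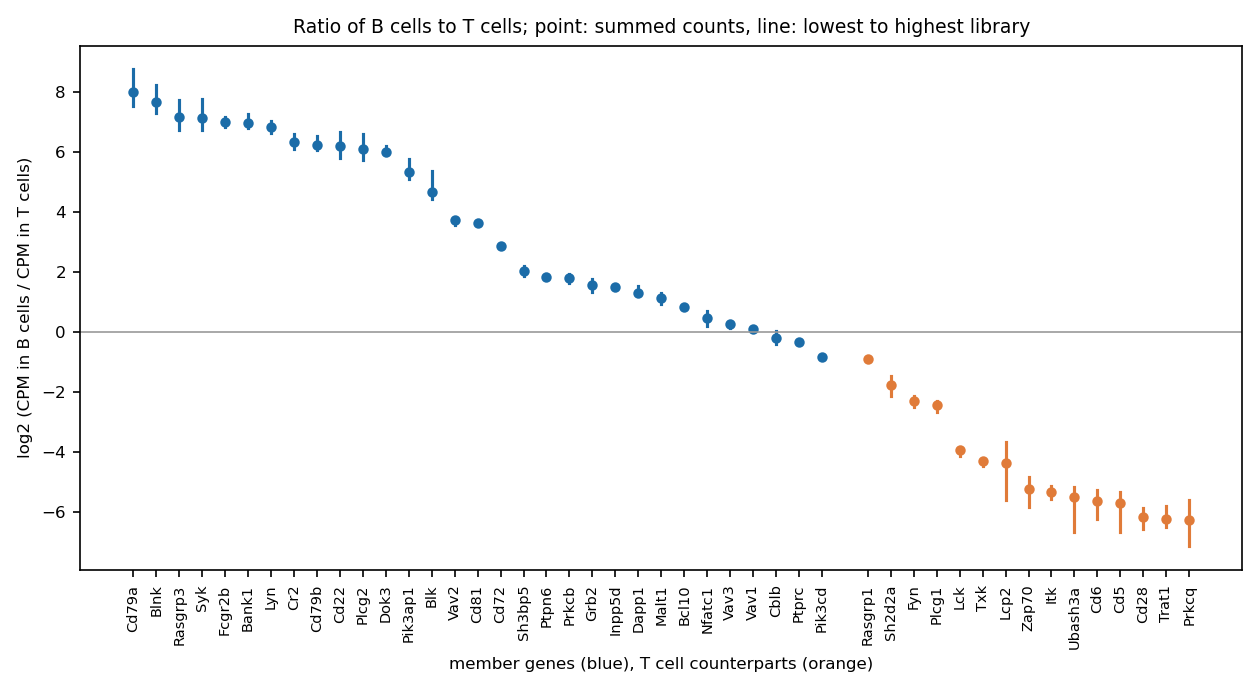
Log2 ratio of the B cell to the T cell level from summed counts for the 31 members (blue) and 15 T cell counterparts (orange), with lines from the lowest to the highest library. The members run from 7.98 for Cd79a down to -0.81 for Pik3cd, and all 15 counterparts lie below 0.

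The 15 T cell counterparts, genes that do the same tasks behind the T cell receptor, showed the mirror image. All 15 met the rule as lower in B cells, with a median log2 ratio of -5.22, against 25 members higher. Prkcq, the T cell protein kinase C theta, had a log2 ratio of -6.24, the adaptor Trat1 -6.21, the costimulatory receptor Cd28 -6.16 and the inhibitory receptor Cd5 -5.70. Of 73 other genes of the B cell receptor pathway, 26 were higher in B cells (14.5% of all genes tested) and 10 lower (14%). The lower share was near that of all genes. Cd5 and Fyn stood on both lists and were counted in both. Cd180 (log2 7.99), the sialic acid lectin Siglecg (7.67) and Btk (7.37) had the largest ratios.

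Against monocytes and type 2 DCs fewer members stood out. By the same rule 11 members were higher in B cells (14.6% of the 10871 genes tested) and 4 were lower (13.5%). The 11 were Blk, Blnk, Cd79a, Cd79b, Cd22, Cd72, Bank1, Cr2, Cd81, Rasgrp3 and Sh3bp5, and the 4 were Lyn, Fcgr2b, Vav3 and Ptprc. The higher share was above that of all genes and the lower share close to it. The median log2 ratio was 0.33 over members and -0.11 over all genes. Trimmed-mean scaling moved the ratios by 0.35. It gave 14 higher and 2 lower, adding Vav2, Malt1 and Dok3 above and leaving Fcgr2b and Vav3 below. The signs of Grb2, Inpp5d, Nfatc1 and Ptpn6 changed between settings, so no direction is given for them. Among the 73 other pathway genes 14 were higher (14.6% of all genes) and 17 lower (13.5%). The Src-family kinase Fgr (log2 -4.50), the adaptor Dok2 (-4.05) and the inhibitory receptor Pirb (-4.01) were lower in B cells and the proton channel Hvcn1 (3.63) higher.

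Mature DCs, which have moved to the node and present antigen, gave as many higher members as T cells did, and all of these comparisons share the same B cells. In B cells 25 members were higher (24.2% of 11131 genes) and 2, Dapp1 and Cblb, were lower (17%), so that fewer members than genes in general were lower. At 1500 UMIs per cell Dapp1 lost its call. Vav2, Vav3, Malt1 and Cd81 were not called. The median log2 ratio was 2.37, against 0.23 over all genes. Syk had a log2 ratio of 2.21, Lyn 2.51, Blnk 2.38 and Prkcb 3.02. Of 72 other pathway genes tested 26 were higher (24.2% of all genes) and 14 lower (17%), led by Fcrl1 (6.75), the Csk-binding adaptor Pag1 (6.48) and Cd180 (6.36).

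The 3 smallest classes gave less precise values. Against plasmacytoid DCs 13 members were higher in B cells (17.1%) and Vav1 was lower (7.85%). Against NK cells 17 were higher (15.4%) and Pik3cd, Cblb and Ptprc were lower (6.13%), or 20 and 1 with trimmed-mean scaling, which moved the ratios by 0.45. The T cell marker list stood at 412 CPM in the NK cells and 3259 CPM in T cells. The part of T cells in the NK values was not tested. Against macrophages 15 were higher (30.3%) and Pik3cd was lower (7.15%). With trimmed-mean scaling the calls of Vav1 against plasmacytoid DCs and Pik3cd against macrophages were lost. In simulated data the rule called 10.1%, 10.7% and 20.1% of unchanged genes higher in these 3 comparisons. With at least 10 expected counts required in the smaller class, a setting added after seeing the data, the higher members numbered 9, 13 and 5. Trimmed-mean scaling moved the ratios by 0.40 against plasmacytoid DCs and by 0.82 against macrophages. Other pathway genes were higher and lower in numbers of 16 and 7 of 72 against plasmacytoid DCs, 14 and 8 against NK cells and 17 and 6 against macrophages. The shares of all genes given above apply to these counts too.

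**Figure D3:**
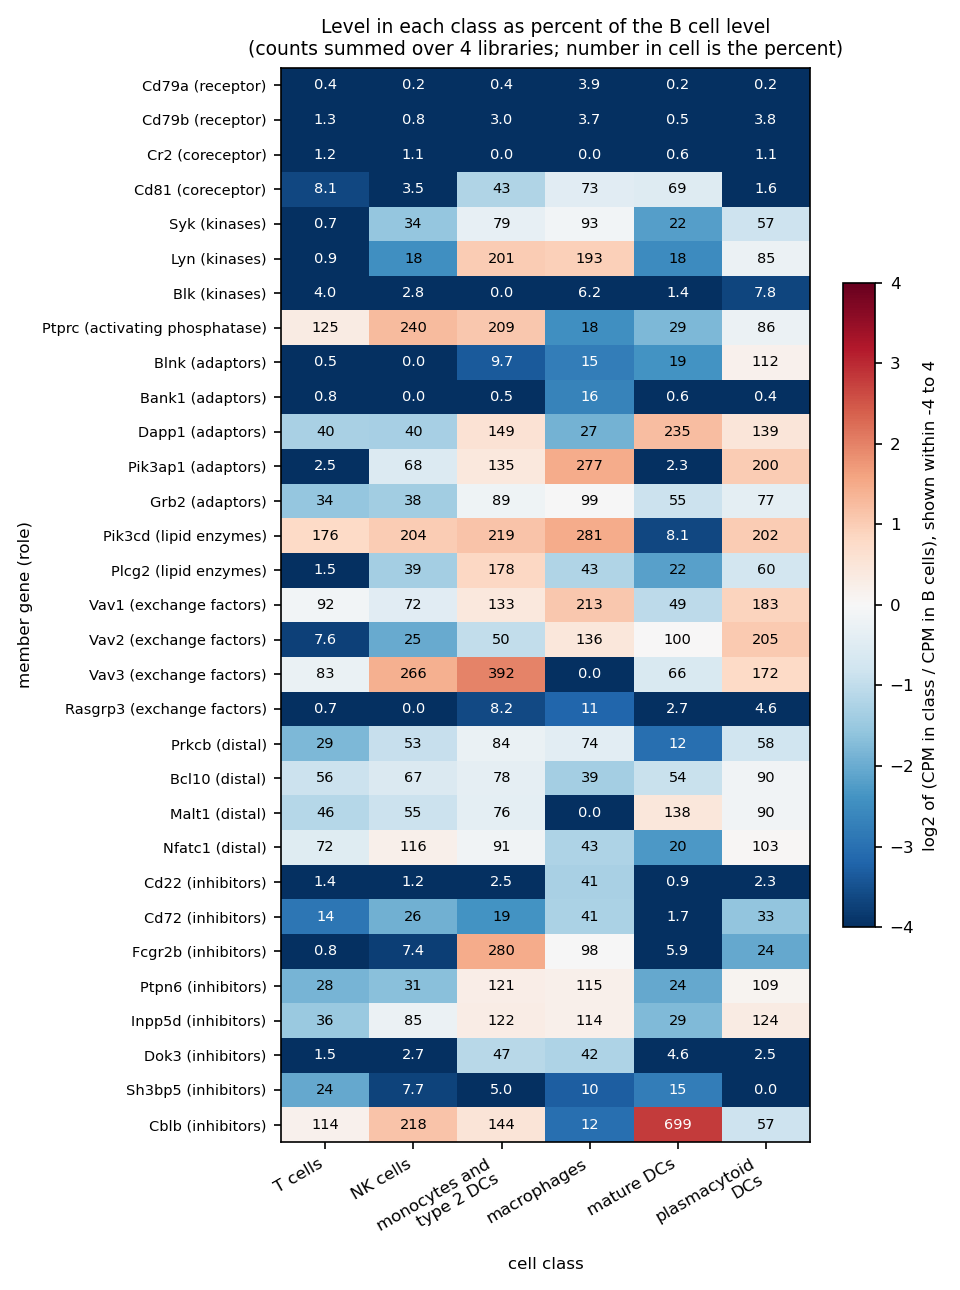
Level of each member in 6 other cell classes as a percent of its B cell level, from counts summed over 4 libraries, with colour on a log2 scale cut at -4 and 4. Rows are ordered by role, and Cd79a, Cd79b, Cr2 and Blk stay at or below 7.78% in all 6 columns.

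Sharing was then read on a single scale. A member was counted as shared with a class when its level there was at least 25% of the B cell level, summed and in each library with at least 10 counts over both classes. On that scale 9 members were B-restricted: Blk, Cd79a, Cd79b, Cd72, Bank1, Cr2, Rasgrp3, Sh3bp5 and Dok3. Of the 7038 genes with at least 10 CPM in B cells 2.27% were, and 30 of the 31 members were among those genes, all but Vav3. Another 9 members were shared with myeloid classes and with neither T nor NK cells: Syk, Lyn, Blnk, Plcg2, Pik3ap1, Cd22, Fcgr2b, Vav2 and Cd81. The other 13 were shared with both sides: Pik3cd, Ptpn6, Inpp5d, Dapp1, Vav1, Vav3, Prkcb, Bcl10, Malt1, Grb2, Cblb, Nfatc1 and Ptprc. No member was shared with T or NK cells and no myeloid class. In the small classes 1 library with few counts is enough to end a sharing call. Syk, Plcg2 and Pik3ap1 stood at 34.5%, 38.97% and 68.4% of their B cell levels in NK cells by summed counts, from 23, 12 and 6 counts, and were not counted as shared there because at least 1 library lay under the threshold. Cd22 was shared through the macrophage gate alone, from 15 counts in cells that also held Cd79a, and stood at 2.5% of its B cell level in monocytes. Classes under 50 cells did not enter this scale. Of the B-restricted members, Rasgrp3 stood at 81.1% of its B cell level in 20 cDC1 cells, from 16 counts. Dok3 and Sh3bp5 stood at 131% and 53.0% in 16 neutrophils, from 7 and 5 counts.

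By role, both receptor subunits were B-restricted, as were 1 of 2 coreceptors, 1 of 3 kinases, 1 of 5 adaptors, 1 of 4 exchange factors and 3 of 8 inhibitors. Neither lipid enzyme was, nor any of the 4 distal relays or the phosphatase Ptprc. Sh3bp5 lay just inside the threshold, at 24.3% of its B cell level in T cells, and Ptpn6 just outside, at 27.7%. Read from summed counts alone, 7 members were B-restricted (1.11% of genes), 7 were shared with myeloid classes alone and 17 with both sides. For the B-restricted group this was because Cd72 then reached 26.2% in NK cells and 33.4% in plasmacytoid DCs, and Dok3 46.7% in monocytes, while both also passed 25% in macrophages. Dok3 was also lost without library 2 and Cd72 without library 3, which left 8.

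Class by class, the members lay lowest in T cells, at a median of 8.07% of the B cell level where all genes had a median of 88.1%, and in mature DCs, at 19.2% against 78.5%. They lay at 31.1% in NK cells, 41.3% in macrophages, 60.0% in plasmacytoid DCs and 79.0% in monocytes, where all genes had medians of 106%, 84.3%, 99.8% and 97.6%. By summed counts 18 of the 31 stood under 25% of the B cell level in T cells (5.92% of genes) and 20 in mature DCs (12.2%). The same held for 14 in NK cells (6.96%), 12 in macrophages (17.5%), 11 in plasmacytoid DCs (7.74%) and 10 in monocytes (6.14%).

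Within the B cells, 300 cells with at least 2 UMIs of at least 2 germinal centre markers were set apart. Germinal centre cells are dividing B cells under selection for antigen binding. These held the cell cycle list at 2276 CPM, against 22.3 CPM in the other B cells, with 0 of its 8 genes at 0, and a median of 11729.5 UMIs per cell against 3722. Libraries 1 and 2 held 144 and 145 of them. Libraries 3 and 4 held 7 and 4 and, having fewer than 30, did not enter the comparison. The handling-stress list, which includes Fos and Jun, stood at 221 and 201 CPM in libraries 1 and 2 against 544 and 539.9 CPM in their other B cells. The part of either list in the member ratios was not tested. Of the 31 members, 12 were lower in germinal centre cells (22.7% of 10523 genes) and 1 was higher (21.2%). The share of members that were lower was above that of all genes and the share that were higher was below it, and the median log2 ratio was -0.47 against -0.04 over all genes.

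The 12 lower members came from several roles and included all 4 distal relays and 1 of the 2 receptor subunits. Cd79a stood at 1268 and 1194 CPM in the germinal centre cells of libraries 1 and 2 and at 2526 and 2562 CPM in the other B cells (log2 -1.05). Bank1 stood at 149.9 and 118 CPM against 674 and 672 CPM (log2 -2.34). Cd72 stood at 68.1 and 52.8 CPM against 238 and 251 CPM (log2 -2.03). All 3 lay below the other B cells in both libraries, without overlap. The share of cells with a UMI went the same way for Bank1, from 86.1% to 74.3%, or from 60.4% to 19.7% at 1500 UMIs per cell. For Cd72 it went from 53.1% to 36.7%, or from 27.8% to 8.70%.

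Cr2 stood at 70.0 and 74.5 CPM against 229 and 225 CPM (log2 -1.65). Prkcb stood at 63.7 and 56.6 CPM against 156 and 159.8 CPM (log2 -1.40), and Malt1 at 63.7 and 63.0 CPM against 138 and 157 CPM (log2 -1.22). Vav3 had 2 counts in germinal centre cells (log2 -4.87, counting interval -7.93 to -3.00). These 4, with Bank1 and Cd72, were the 6 that stayed lower at a 2-fold threshold. Cd22 (-0.63), Bcl10 (-0.70), Cblb (-0.86), Nfatc1 (-0.70) and Ptprc (-0.78) completed the 12.

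Grb2 was the 1 higher member, at 393 and 417 CPM against 251 and 267 CPM (log2 0.65), and it lost the call at a 2-fold threshold, with trimmed-mean scaling and under a stricter cell filter. Plcg2 stood at 107 and 114 CPM against 77.8 and 83.2 CPM and was not called (log2 0.46). Cd79b, at 1269 and 1166 CPM against 1824 and 1877 CPM, was lower in both libraries but not by 1.5-fold in each (log2 -0.61). Syk (-0.48), Lyn (-0.66), Blk (-0.39) and Btk (-0.50) were not called either. The signs of Dok3, Fcgr2b, Pik3cd, Vav1 and Vav2 changed between settings. Among 71 other pathway genes 4 were higher (21.2% of all genes) and 23 lower (22.7%). The adaptor Sh2b2 (log2 4.52) lay above and the surface enzyme Cd38 (-3.94) and the phosphatase Ptpn22 (-2.96) below.

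**Figure D4:**
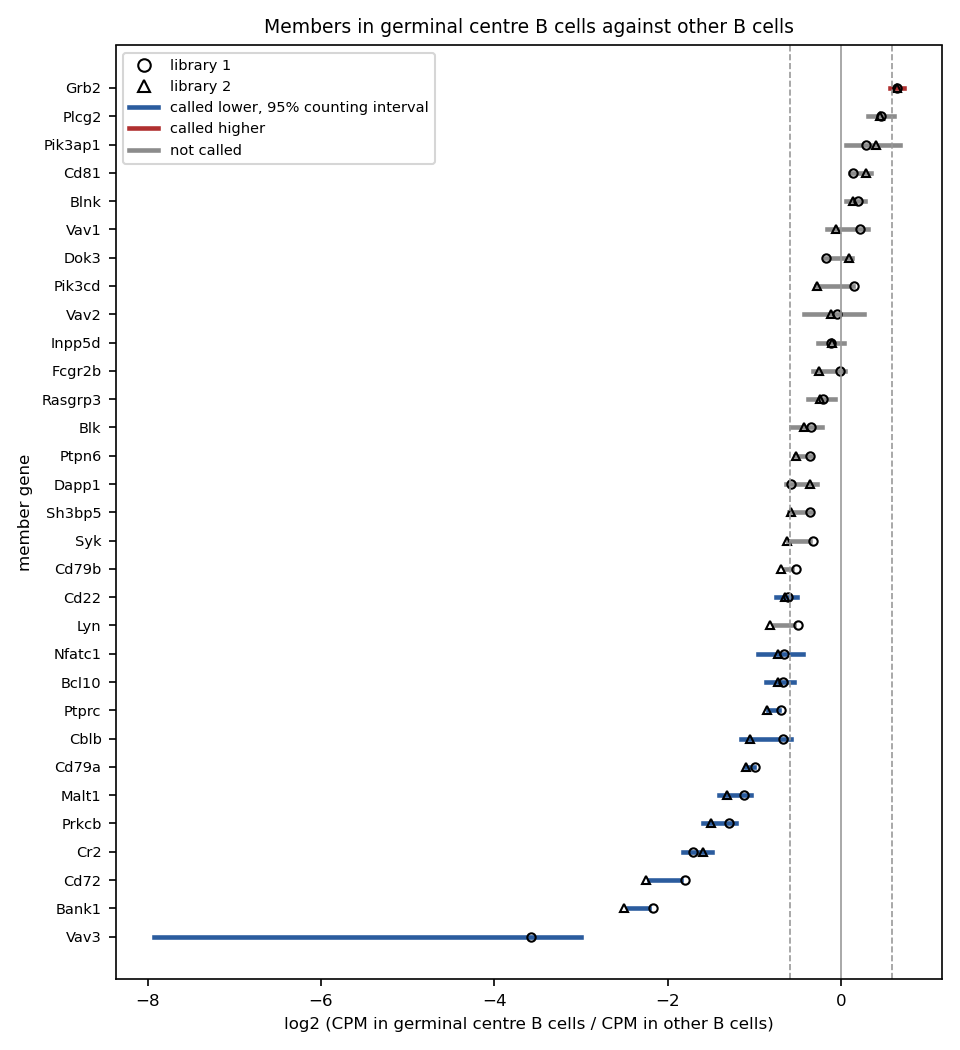
Log2 ratio of each member in germinal centre B cells to the other B cells, with a circle for library 1, a triangle for library 2, a bar for the 95% counting interval of the summed ratio and dashed lines at 1.5-fold. Vav3, Bank1, Cd72, Cr2, Prkcb and Malt1 lie furthest below 0 and Grb2 is the 1 member called higher.

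A second set of 354 B cells passed a gate on early-response genes, which B cells switch on after antigen binding. The gate genes were Egr2, Egr3, Nr4a1, Myc, Nfkbid and Irf4. 0 of the 31 members were called higher (1.9% of 10309 genes) and 0 lower (1.06%). The median log2 ratio was 0.01 against 0.11 over all genes, and trimmed-mean scaling moved the ratios by -0.14. Nfatc1 had the largest ratio, at 130.1, 74.5, 112 and 118 CPM against 55.0, 53.6, 53.2 and 47.9 CPM in the other B cells. It was higher in each of the 4 libraries, short of 1.5-fold in library 2 (log2 1.08, libraries 0.47 to 1.31), and it met the rule when library 2 was left out. The handling-stress list stood at 863 CPM in these cells and 607 CPM in the other B cells, and its part in the ratio was not tested. At 1500 UMIs per cell Nfatc1 and Pik3ap1 were called higher.

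Of 72 other pathway genes 5 were higher in the early-gene cells (1.9% of all genes) and 0 were lower (1.06%). The 5 were Rel (log2 1.16), Nfkbie (1.11), the calcium channel Orai1 (0.92), Cd180 (0.78) and Nfkbia. Nfkbia is named to complete the count, after its values were seen. Rel is an NF-kB subunit, and Nfkbie and Nfkbia encode inhibitors of NF-kB. The gate that picked these cells held Nfkbid, a gene of the same inhibitor family, so these levels are not independent of the gate. In 326 B cells with Fcrl5, an Fc receptor-like gene of marginal zone and related B cells, 0 members were higher (1.06%) and 0 lower (1.71%). Of these cells 251 held a single Fcrl5 UMI. Nfatc1 again had the largest ratio, 0.63, at 111, 77.1, 63.8 and 78.1 CPM over the 4 libraries. Of 72 other pathway genes 0 were higher (1.06% of all genes) and 1 was lower (1.71%), Hvcn1 (log2 -0.66).

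Some members varied among T cells. In CD8 against CD4 T cells 3 members were higher (2.87% of 11236 genes) and 2 were lower (3.18%), of 30 tested. Trimmed-mean scaling moved these ratios by 0.11, and at 1500 UMIs per cell the counts were 1 and 1, Cd72 and Cd81. Cd72 stood at 37.1, 37.6, 38.1 and 38.6 CPM in CD8 and 17.0, 12.6, 13.9 and 15.7 CPM in CD4 T cells (log2 1.35), with no overlap. Its UMIs were found in 23.3% of CD8 and 7.93% of CD4 T cells, or 5.51% and 1.90% at 1500 UMIs per cell. Cd79b stood at 26.4, 28.4, 26.3 and 32.5 CPM in CD8 and 17.0, 10.8, 7.62 and 14.3 CPM in CD4 T cells (log2 1.19). Fcgr2b stood at 0.744 CPM in CD8 and, from 5 counts, at 0.280 CPM in CD4 T cells (log2 1.41, counting interval 0.07 to 3.11). In library 3, with under 10 counts, CD8 lay below CD4 T cells (log2 -0.24). Over all T cells Fcgr2b stood at 0.786% of its B cell level, an order that cannot be told apart from free B cell RNA. Cd79a, the other receptor subunit, stood at 9.50 CPM in CD8 and 9.12 CPM in CD4 T cells.

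Cd81 and Vav3 were the 2 lower in CD8 T cells. Cd81 stood at 2.77, 2.65, 1.67 and 2.5 CPM in CD8, 17.0, 18.4, 14.8 and 16.3 CPM in CD4 and 65.3, 99.0, 109 and 102 CPM in regulatory T cells, 3 ranges that did not overlap. Regulatory T cells, marked here by Foxp3, held 3 higher members of 23 tested, a share near the 9.35% of 9876 genes, and 0 lower (2.15%). The 3 were Cd81 (log2 2.54), Lyn (2.06, from 21 against 26 counts) and Cd79b (1.09). The count fell to 1 at a 2-fold threshold and with trimmed-mean scaling, which moved the ratios by -0.27. Over the settings the log2 ratio of Lyn ran from 0.17 to 2.42, that of Cd81 from 1.95 to 2.72 and that of Cd79b from 0.82 to 1.63. The cell cycle list stood at 1291 CPM in regulatory and 112 CPM in CD4 T cells.

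Between libraries the members varied about as much as other genes in the B cells outside the 3 special gates. Of 27 members with at least 50 CPM in at least 1 library, 0 differed by 1.5-fold between their highest and lowest library after 10 CPM was added to each value, against 1.74% of 2586 genes, a background so low that a count of 0 says nothing particular of the members. The ratio ran from 1.04 to 1.26 with a median of 1.12, the same as the median over all genes. Inpp5d had the widest range, at 118, 113, 94.2 and 91.7 CPM, followed by Grb2 at 251, 267, 219 and 215 CPM and Bcl10 at 137, 136, 119.5 and 109.5 CPM. Cd79a, at 2526, 2562, 2745 and 2669.7 CPM, and Bank1, at 674, 672, 669 and 648 CPM, stayed within narrower ranges.

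**Figure D5:**
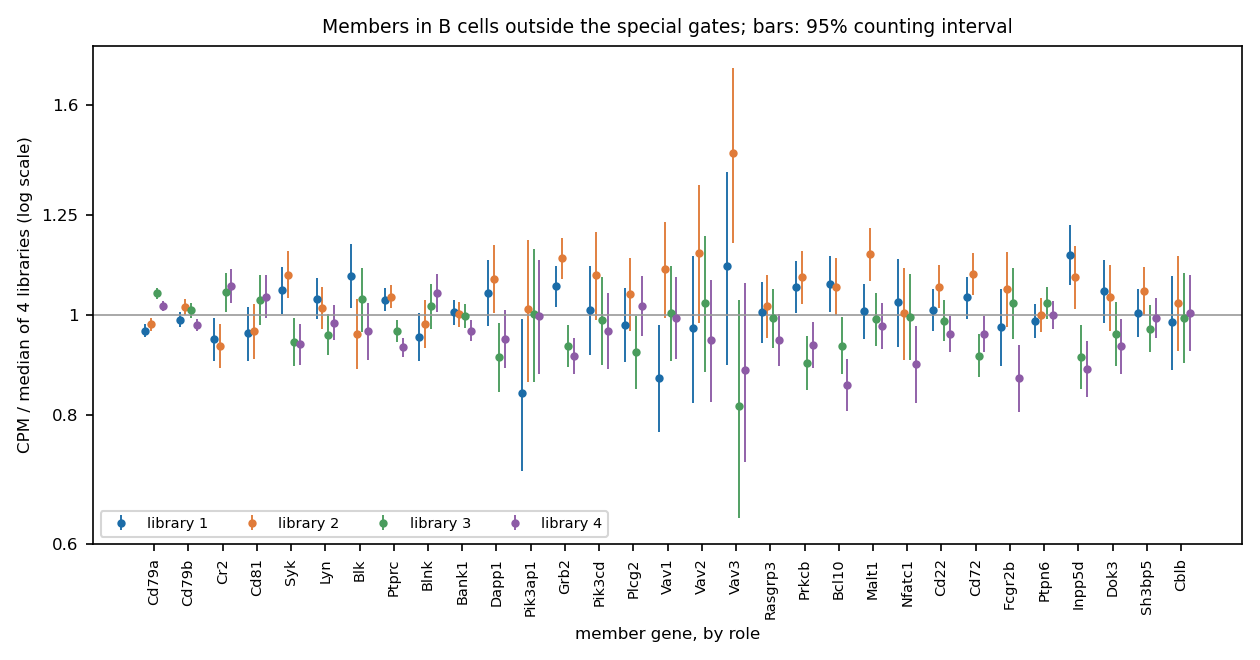
CPM of each member in the B cells outside the germinal centre, early-gene and Fcrl5 gates, divided by the median of the 4 libraries (log axis), with 95% counting intervals. Apart from the low Vav3, whose intervals are wide, the points lie close to 1 in all 4 libraries.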

How the data were processed

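Each library held single cells of 1 mouse's tumour-draining nodes. The authors deposited 1 filtered UMI count matrix for the 4 libraries. It came from cellranger 5.0.0, per the file headers, and build mm10 and Cell Ranger are named in the submitters' processing notes. The counts are unnormalized whole numbers. They are 3′ tags, so genes are compared across classes and not with each other.

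Barcodes were filtered, gated by markers, and summed per class and library, then divided by total UMIs (CPM). Python 3.11.15 was used with scipy 1.17.1, pandas 2.3.3 and numpy 2.4.6. Cells of B, T, NK and myeloid gates were left out when they held 2 or more markers of another lineage. T and NK markers did not count against each other, and NK cells were those of the NK gate with no Cd3e or Cd3d UMI. In that step 4 widely detected markers were not counted, a choice made after marker detection was seen, and the first scoring, which left a cell out at any 2 such UMIs, is among the alternatives. The subset gates used 3 UMIs (early genes), 2 UMIs (germinal centre) and 1 UMI (Fcrl5). Of 354 early-gene cells 128 lay at exactly 3 UMIs, and 12 of 300 germinal centre cells at exactly 2. Of the kept cells 91.7% were in a class, and 471 were in no gate. Doublets were left in the main values. Scrublet (scanpy 1.11.5) marked 927 cells, 774 of them already set aside as mixed.

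Intervals are exact Poisson or Clopper-Pearson at 95% and cover counting error only. Trimmed-mean (TMM) factors came from edgeR 4.0.16 in R 4.3.3, and figures from matplotlib 3.10.9. The fold rule was tested on simulated counts, where it recovered 97% of 4-fold and 35% of 2-fold changes between B and T cells, and 97.9% and 60.8% between germinal centre and other B cells. Of unchanged genes it called 0.105% higher and 0.153% lower between B and T cells. The same shares were 2.17% and 3.07% for germinal centre cells, and 4.14% and 0.391% for B cells against monocytes. All 31 members are named, and from each of 2 further lists no more than 4 called genes, taken by the size of their ratio, with Nfkbia in the early-gene cells as the 1 exception. The pathway list had 74 genes, 73 of them in the file. The members and lists were chosen with earlier results of these data known. All 31 members lay in an annotation of the build with 0 same-strand exon overlaps. Alternatives changed the scaling, fold, count minimum, cell filter, gates, depth, doublets and libraries. Plasma cells (8), cDC1 cells (20) and neutrophils (16) were too few to compare.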

Additional observations from a re-analysis of the deposited data

Results flagged for a closer look

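Members also gave signal in 3 classes that entered no comparison because they held under 50 cells. Each value below is higher than the B cell level, from summed counts over all libraries, with the 95% counting interval. In 8 plasma cells Cd81 stood at 266.1 CPM (196.9 to 351.8), from 49 counts. In 20 cDC1 cells, the cross-presenting DCs, Cd81 stood at 231 CPM (43 counts), Inpp5d at 177 CPM (33 counts) and Vav3 at 53.6 CPM (10 counts). In 16 neutrophils Ptprc stood at 2850.2 CPM (156 counts), Lyn at 457 CPM (25 counts), Syk at 365 CPM (20 counts), Bcl10 at 274 CPM (15 counts) and Pik3cd at 238 CPM (13 counts).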

How the results depend on the processing

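Under the main alternatives 286 recomputed counts stayed within 1.5 times the reported count and 34 moved, and under those added after seeing the data 39 stayed and 7 moved. With trimmed-mean scaling the lower members numbered 2 (monocytes), 0 (macrophages), 0 (plasmacytoid DCs) and 1 (NK cells), and the higher ones 0 (germinal centre) and 1 (regulatory T cells). At 2-fold the lower numbered 0 (T cells), 1 (monocytes), 0 (plasmacytoid DCs), 1 (NK cells), 6 (germinal centre) and 1 (CD8), and the higher 0 (germinal centre), 1 (regulatory T cells) and 1 (CD8). At 1500 UMIs per cell the lower numbered 1 (mature DCs), 0 (plasmacytoid DCs) and 1 (CD8), and the higher 2 (germinal centre), 2 (early-gene cells) and 1 (CD8). Where 1 UMI of another lineage left a cell out, the lower numbered 0 (macrophages) and 0 (plasmacytoid DCs) and the higher 1 (early-gene cells). The stricter cell filter gave 0 higher in germinal centre cells, and leaving out non-B cells with Cd79a gave 1 higher in CD8. With the first gate scoring, added later, the lower numbered 2 (plasmacytoid DCs) and the higher 1 (early-gene cells) and 1 (CD8). With 10 expected counts, also added later, the higher numbered 5 (macrophages) and the lower 0 (macrophages), 0 (plasmacytoid DCs) and 1 (NK cells). A 10% share left 5 B-restricted members and a 50% share 12. The cause of these shifts was not tested.

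Leaving out each library gave, for higher and lower members, 25 to 25 and 1 to 1 (T cells), 11 to 12 and 4 to 5 (monocytes), 15 to 17 and 1 to 2 (macrophages), 25 to 25 and 2 to 2 (mature DCs), 13 to 14 and 1 to 3 (plasmacytoid DCs), 17 to 20 and 3 to 3 (NK cells), 1 to 1 and 12 to 15 (germinal centre, where 1 library remained), 0 to 1 and 0 to 0 (early-gene), 0 to 0 and 0 to 0 (Fcrl5), 3 to 4 and 0 to 1 (regulatory T cells) and 2 to 3 and 2 to 2 (CD8). The B-restricted members numbered 8 to 9. Without library 2, Vav1 joined the members lower than in macrophages and Cr2 was lower in regulatory T cells. Without library 3, Lyn joined those lower than in macrophages, and Pik3cd and Vav3 those lower than in plasmacytoid DCs. Without library 4, Pik3ap1 joined both.

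No paired analysis was possible because the barcodes carry no link to the labelled mice or their replicate numbers. The plasma cell comparison gave no value, with 8 cells. In the 3 smallest classes few counts per library limit both the calls and the sharing, and a p-value was not computed anywhere.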
